A study of Mus musculus with 8 samples.

Results

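Collagens are the main structural proteins of the matrix around fibroblasts. Each collagen molecule is a rope-like helix of chains, and each chain is the product of its own gene. The genes described here are those of mouse named Col, a type number, the letter a and a chain number, and they were taken from probes on Agilent mouse arrays that carry a RefSeq mRNA accession. This rule found 64 probes of 44 collagen genes, out of 20030 gene names with such a probe. A gene was tested where all arrays of some group showed a probe of it well above background, as held for 31 of these collagen genes and for 13421 gene names in all. The remaining 13 genes had no such probe and were not tested.

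The RNA came from NIH3T3, an established fibroblast line that was derived from mouse embryos. The cells, grown on 15 cm plates with 10% newborn bovine serum, were held in 0.5% serum for 24 h and then given either 20 µM cordycepin or the vehicle, 0.1% DMSO. Cordycepin is 3′-deoxyadenosine, an adenosine analogue that lacks the hydroxyl group on which an RNA chain is extended. Fresh serum followed 60 min later at 0.1 volume and was left for 30 min, so that the cells had cordycepin for 90 min in all. There were 3 arrays of cells given cordycepin and then serum, 3 of cells given vehicle and serum, and 2 of cells given no serum. All groups were starved, no array was of cells given cordycepin without serum, and all cells were of 1 line. The design text calls the experiment an independent triplicate and the labels say no more of how cultures relate, so the p-values below measure the spread between these arrays, part of which may be technical. In bulk RNA, fewer cells of a kind and less RNA per cell cannot be told apart.

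Procollagen chains are made in the endoplasmic reticulum, hydroxylated and folded there, secreted, trimmed, assembled and crosslinked. Fibrillar collagens of types I, II, III, V and XI form the tensile fibres of connective tissue, with type II as the main collagen of cartilage. Type IV collagen forms the sheet of the basement membrane, and type VI forms beaded filaments in the space around cells. FACIT collagens attach to the surface of fibrils. Transmembrane collagens stay anchored in the cell membrane. The multiplexins, types XV and XVIII, lie in basement membranes and release antiangiogenic fragments. Fibroblasts are the main source of types I, III and VI in most tissues.

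The probes were 60 bases long and read the RNA strand. Glycine, the smallest amino acid, recurs along a collagen helix with a pair of other residues between, and its codons begin with GG. A reading frame with GG at 5 or more successive places of this spacing and free of stop codons was found in 3 of the 64 collagen probes (4.69%) and in 6 of 26668 other RefSeq mRNA probes (0.0225%). These 3 are shown because they read the helix itself, with the GG of each such codon in capitals, written 5′ to 3′ with coordinates in mm9.
Col16a1, chr4:129756457-129756516, plus strand: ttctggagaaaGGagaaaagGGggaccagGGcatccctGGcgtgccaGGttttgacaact
Col25a1, chr3:130270497-130270556, plus strand: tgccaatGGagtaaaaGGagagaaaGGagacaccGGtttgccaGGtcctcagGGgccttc
Col15a1, chr4:47283786-47283845, plus strand: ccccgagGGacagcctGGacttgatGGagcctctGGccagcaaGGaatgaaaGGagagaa
The Col15a1 probe was above background on no array. The others were measured and return below.

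Other probes held the letters of the usual polyadenylation signal. AATAAA, searched in the probe as printed, was in 10 of the 64 collagen probes (15.6%) and in 13.3% of the other RefSeq mRNA probes. Stretches of 30 bases are shown for the genes in which more than 1 tested probe held these letters, since the comparison of probes below turns on them, with AATAAA in capitals. A match is a description of the letters, not a mapped end of the RNA.
Col16a1, from chr4:129776333-129776392, plus strand: gactctactaggAATAAAtggccaaagctt
Col16a1, from chr4:129776460-129776519, plus strand: ttttttaacAATAAAgaaaactatttgtaa
Col18a1, from chr10:76515790-76515849, minus strand: atgtaatcctcaagaAATAAAaggaagcca
Col18a1, from chr10:76514926-76514985, minus strand: aaagaggcaccaAATAAAaatgacatttta

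Values are log2 signals relative to the 75th percentile of all non-control spots on the same array. They can be compared between arrays for a probe, and not between probes. No spot was saturated, and the share of probes above background ran from 51.1 to 57.1% over the arrays. Of 10 fibroblast markers, 9 were above background on all arrays and Fap on none. Of 6 epithelial markers, 5 had no tested probe, and Cdh1, Krt5, Krt8 and Krt18 were above background on no array. The other epithelial marker, Krt14, was above background on all arrays and rose by 0.53 ± 0.14 with cordycepin (adjusted p = 0.0312 in limma). Of 4 endothelial markers, Pecam1, Tek and Kdr were above background on all arrays and Cdh5 on none, and of 4 smooth muscle markers, Cnn1 and Smtn were above it on all, Des on 7 and Myh11 on none. None of these passed in any comparison.

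With the brightest tested probe standing for each gene, Col2a1 was the collagen gene that passed with cordycepin, and no other did. Its probe entered the test through the cordycepin group alone. On averaging its tested probes, Col4a4 also passed against serum at any fold, as given below. Of the 31 genes tested, 1 was called higher and 0 lower with cordycepin plus serum against serum, where a call needs an adjusted p under 0.05 in limma and a log2 change of at least 1 in size. Over all 30859 probes tested, 7.63% were called higher and 2.87% lower, and over the 17896 RefSeq mRNA probes among them, which are the like of the collagen probes, 3.54% and 2.45%. At an adjusted p under 0.05 and any fold, the count was again 1 of 31 collagen genes, beside 19.4% of all probes and 14.1% of RefSeq mRNA probes. At an unadjusted p under 0.05 it was 2, beside 32.0% of all probes. The median log2 change of the collagen genes was 0.06, beside 0.10 for all probes and 0.06 for RefSeq mRNA probes, and the collagen median was -0.03 after quantile normalisation, so its sign depends on the scaling. The 95% interval of the change lay within 1 log2 unit of no change for 30 of the 31 collagen genes (96.8%), beside 76.2% of all probes and 85.5% of RefSeq mRNA probes. It lay within 0.5 for 14 of them (45.2%), beside 33.6% and 41.6%. Among features above background on all arrays the former shares were 28 of 28 collagen genes and 83.4%.

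No collagen gene passed the test for serum alone. The count was 0 of 31 in limma for cells given serum against cells without, at an adjusted p under 0.05 and also at an unadjusted p under 0.05, while 1.73% of all probes were called in either direction and 2.27% passed at any fold, with 10.3% at an unadjusted p under 0.05. The collagen median was 0.04, beside -0.02 for all probes. On centring to spike-in probes the collagen median was -0.29 and that of all probes -0.35, so the sign of the collagen median under serum depends on the scaling. The interval lay within 1 log2 unit for 30 of 31 genes, and Col25a1 was the exception. When cells given cordycepin and serum were set against cells without serum, again 1 collagen gene was called higher and 0 lower, beside 6.48% and 2.99% of all probes, and 1 passed at any fold, beside 15.1%. This last comparison shares its arrays with the other comparisons and is no independent view of them.

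**Figure D1:**
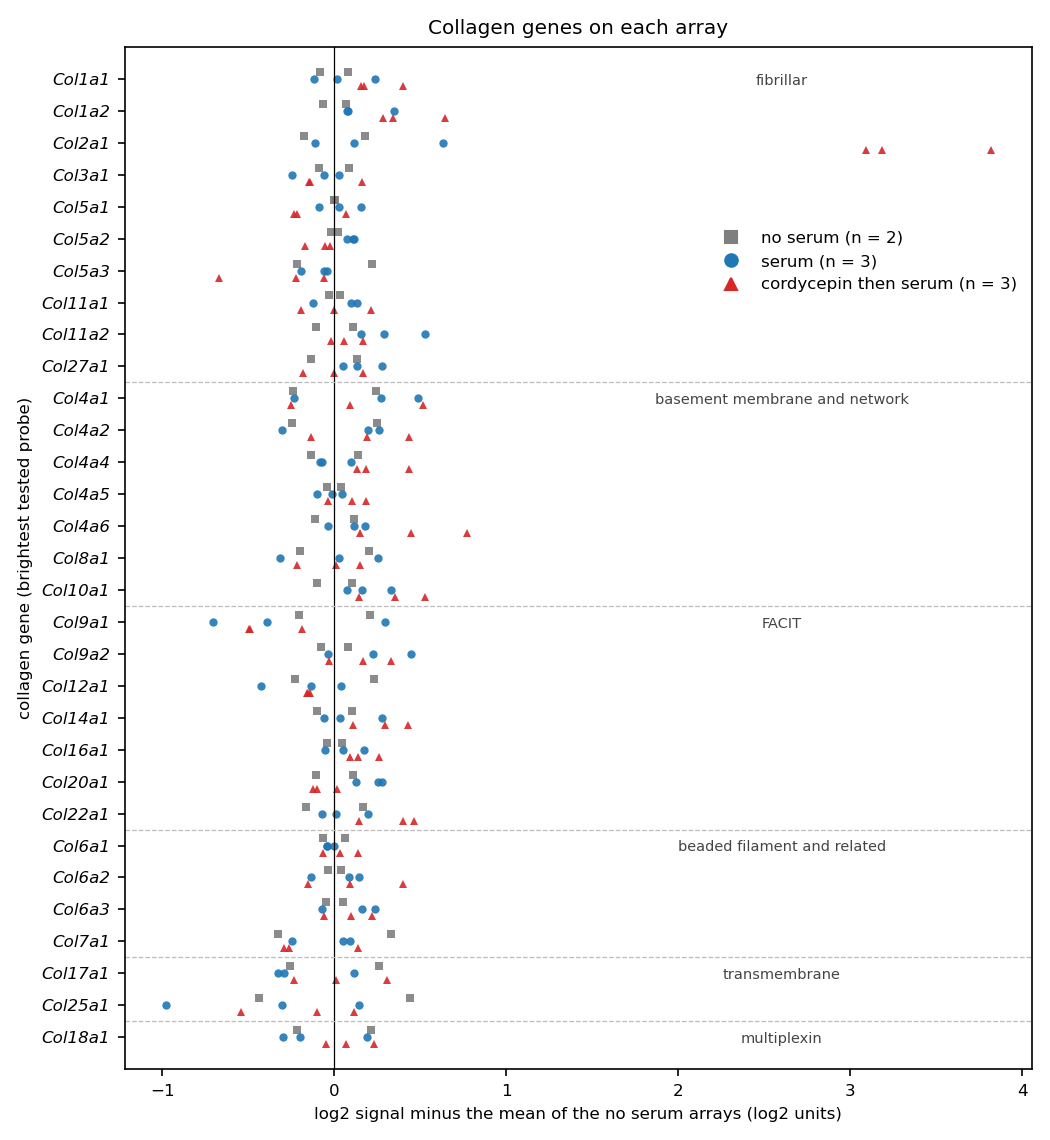
Log2 signal of the brightest tested probe of each of the 31 collagen genes on each of the 8 arrays, minus the mean of the 2 arrays without serum, with genes grouped by class. Squares are cells without serum, circles serum, and triangles cordycepin then serum; all points lie within 1 of the line at 0 but the triangles of Col2a1.

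Type I collagen, the most abundant protein of connective tissue, is built from the products of Col1a1 and Col1a2. Col1a1 read 7.43, 7.18 and 7.20 with cordycepin, 7.05, 7.27 and 6.91 with serum, and 6.95 and 7.11 without serum. The arrays of cordycepin and serum overlapped, and the change was 0.20 ± 0.13 (SE, n = 3 and 3; adjusted p = 0.343 in limma). Col1a2 read 9.49, 9.13 and 9.19 with cordycepin, 8.92, 9.20 and 8.93 with serum, and 8.78 and 8.92 without serum. Its change with cordycepin was 0.26 ± 0.14 (adjusted p = 0.245), with a 95% interval from -0.06 to 0.58. Every array of cordycepin-treated cells lay above both arrays without serum for Col1a1 and for Col1a2, and neither difference passed after adjustment (0.24 ± 0.15, adjusted p = 0.334, and 0.42 ± 0.16, adjusted p = 0.123). Such a separation held for 7 of the 31 collagen genes and for 29.2% of all probes. With serum alone the changes were 0.04 ± 0.15 and 0.17 ± 0.16.

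Col3a1, the chain of type III collagen that accompanies type I in pliable tissues, read 7.58, 7.89 and 7.59 with cordycepin, 7.75, 7.48 and 7.67 with serum, and 7.64 and 7.81 without serum. All groups overlapped, and the cordycepin change was 0.05 ± 0.13 with an interval from -0.26 to 0.36. Type V collagen sits inside type I fibrils and limits their width. Col5a1 read 4.99, 5.30 and 5.01 with cordycepin, 5.38, 5.14 and 5.26 with serum, and 5.23 and 5.22 without serum. Its change was -0.16 ± 0.12 with cordycepin and 0.03 ± 0.14 with serum. Col5a2 read 1.44, 1.32 and 1.47 with cordycepin, 1.57, 1.60 and 1.61 with serum, and 1.47 and 1.52 without serum. Here the cordycepin arrays were all below the serum arrays (log2 change -0.18 ± 0.10, adjusted p = 0.232), as held for 2 of the 31 collagen genes and for 13.4% of all probes.

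Of the 10 fibrillar collagens tested, out of 11 on the array, 4 had a positive and 6 a negative change with cordycepin, with a median of -0.09. Leaving aside Col2a1, the lowest was Col11a2 at -0.26 ± 0.13 (adjusted p = 0.223). Col24a1 was at background on every array.

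Col2a1, the chain of cartilage collagen, was the gene that passed. Its probe at chr15:97806071-97806130 on the minus strand begins gtcctacacaatggtgctattctgtgtcaa, shown in part to identify the place measured. It read -4.02, -4.65 and -4.74 with cordycepin, -7.94, -7.20 and -7.72 with serum, and -8.01 and -7.66 without serum. The cordycepin arrays stood clear of all the others, and the probe was well above background on 3 of 3 of them and on none of the other 5. The fitted log2 change was 3.15 ± 0.25 against serum (adjusted p = 8.97e-05 in limma) and 3.36 ± 0.28 against no serum (adjusted p = 0.000182), and that of serum alone was 0.21 ± 0.28. The probe entered the test through the cordycepin group alone. These values thus set a detected signal against background and give no exact size of the rise. On the processed signal, the group means put Col2a1 at least 1.93-fold higher than in serum and at least 2.26-fold higher than without serum. These bounds carry no error and hold for this background correction only. For the bound, each dim array was set at the lowest signal found well above background on it, which averaged -5.42 in the serum group and -5.64 without serum, against a mean of -4.47 with cordycepin.

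How far Col2a1 rose depends on the background correction. With the normexp method the change was 0.73 ± 0.18 (adjusted p = 0.0194), short of the minimum fold, and 0.92 ± 0.21 against no serum. Both lie below the log2 bounds of 0.95 and 1.17 from the processed signal. Over the other 17 alternatives that kept the probe, the change against serum ranged from 2.92 to 3.36 and was called in each. All of them start from the same processed signal, and the call rules reuse the main fit. They therefore do not test the size of the rise. With arrays split by their row on the slide, the difference on that same signal was 3.61 in the first row (2 arrays against 1) and 2.72 in the second (1 against 2).

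The other genes of cartilage collagens did not pass with cordycepin. Col11a1 changed by -0.03 ± 0.14, Col9a1 by -0.12 ± 0.25, Col9a2 by -0.06 ± 0.16 and Col10a1, the collagen of hypertrophic cartilage, by 0.15 ± 0.14. Col9a1 was above background on no cordycepin array and on 1 serum array, so its change sets values near background against each other. Col9a3 was above background on no array. Of 5 chondrocyte markers, 3 were tested and none passed against serum: Sox9, the master transcription factor of cartilage, at -0.33 ± 0.11 (adjusted p = 0.0856), Acan, the cartilage proteoglycan aggrecan, at 0.52 ± 0.15 (adjusted p = 0.0503), and Comp, a cartilage matrix protein, at -0.01 ± 0.24. Against no serum, Acan passed at 0.81 ± 0.17 (adjusted p = 0.0153) and Sox9 at -0.46 ± 0.13 (adjusted p = 0.0463), in opposite directions. Matn3 was above background on no array and Matn1 on 1. The summed signal of the 3 tested markers ran from 2.69 to 2.92 with cordycepin, from 3.1 to 3.2 with serum and from 3.16 to 3.38 without serum, a sum that follows its brightest member and hides the opposite signs of Acan and Sox9. The part of such cells in the rise of Col2a1 was not tested.

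Probes for long intergenic non-coding RNA (lincRNA) lie upstream of the Col2a1 probe on the same strand, and their signal moved with it. They stand between it and the probe of Senp1, to which they are nearer. They are shown because they read RNA of the same strand, 58590 to 58896 bases upstream of the Col2a1 probe, with no capitals.
chr15:97864661-97864720, minus strand: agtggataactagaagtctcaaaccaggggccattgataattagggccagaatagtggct
chr15:97864895-97864954, minus strand: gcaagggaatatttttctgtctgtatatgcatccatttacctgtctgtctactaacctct
chr15:97864967-97865026, minus strand: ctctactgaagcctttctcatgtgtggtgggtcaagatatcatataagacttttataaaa
The first read -0.32, -0.24 and -0.63 with cordycepin, -3.81, -4.61 and -4.45 with serum, and -3.85 and -3.80 without serum, and was above background on all arrays. Its change of 3.89 ± 0.21 (adjusted p = 1.92e-05 in limma) therefore sets detected signals against each other. The lowest signals well above background on the serum arrays were -5.72, -5.01 and -5.54, not far below its readings there. The size of this change under another background correction was not tested. The other probes were above background on all 3 cordycepin arrays, and elsewhere on 1 serum array for the second and on 2 serum arrays and 1 array without serum for the third. Their fitted changes of 3.92 ± 0.31 and 3.66 ± 0.30 are thus partly against background. Against no serum, where the second was at background on both arrays, a bound of the same kind put it 10.4-fold higher with cordycepin on the processed signal. On no-serum array 1 its own reading of -5.72 was used, as it lay above the lowest signal well above background there, -5.83. That bound is thus approximate. With serum alone the 3 probes changed by -0.47, -0.40 and -0.01, and none of these passed. The 2 probes for the opposite strand at this place were above background on no array.

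The mRNA genes on either side did not pass. Senp1, a SUMO protease gene on the same strand whose probe lay 66164 bases upstream of the Col2a1 probe, changed by -0.48 ± 0.15 (adjusted p = 0.0612). Tmem106c, on the opposite strand and 5740 bases downstream, changed by 0.27 ± 0.14 (adjusted p = 0.222). Whether the lincRNA probes read the same RNA as the Col2a1 probe, or as the nearer Senp1 probe, was not tested. For the 43 collagen genes with a mapped probe, 100000 bases upstream of the most 5′ probe of each were searched. Such a stretch can lie partly inside the gene. Tested non-mRNA probes on the same strand were found for 5 genes, and they were called higher for 1, Col2a1. Of all probes tested, 7.63% were called higher with cordycepin, and of RefSeq mRNA probes 3.54%, so calls were more frequent among non-mRNA probes. A count of 1 in 5 therefore sets Col2a1 apart from these few genes only. For Col11a2, Col20a1, Col22a1 and Col6a2 the changes were 0.28, -0.17, 0.30 and 0.12. This search was made after the values at Col2a1 were seen.

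**Figure D2:**
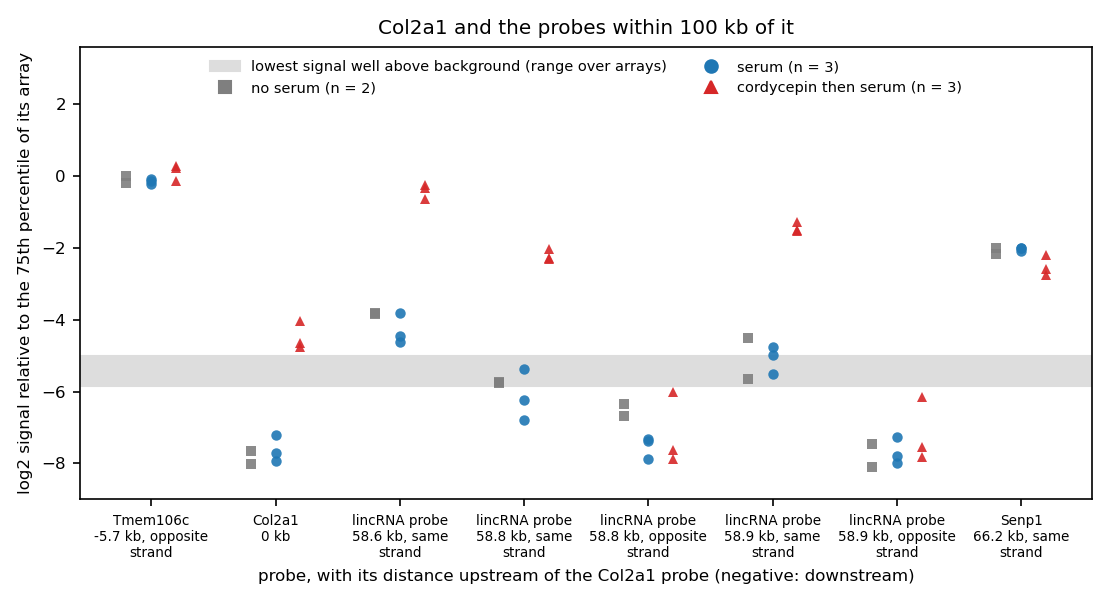
Log2 signal of the Col2a1 probe and of the probes within 100 kb of it on each array, in order of their distance upstream and not to scale, with that distance in kb under each name. The grey band spans the lowest signal well above background on the 8 arrays; triangles (cordycepin then serum) stand above the other groups at Col2a1 and at the 3 same-strand lincRNA probes, and not at Tmem106c, Senp1 or the opposite-strand probes.

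Type IV collagen, the network of the basement membrane, was measured through Col4a1, Col4a2, Col4a4, Col4a5 and Col4a6, while Col4a3 was at background on every array. Col4a1 read 3.09, 3.51 and 2.74 with cordycepin, 3.48, 3.26 and 2.76 with serum, and 2.76 and 3.24 without serum. Col4a2 read 3.19, 3.44 and 2.87 with cordycepin, 3.27, 3.20 and 2.71 with serum, and 2.76 and 3.25 without serum. The groups overlapped for both genes, with changes of -0.06 ± 0.26 and 0.11 ± 0.22 under cordycepin and of 0.17 ± 0.29 and 0.05 ± 0.24 under serum. Their spread within groups was wide, with an SD of 0.37 for Col4a1 and 0.31 for Col4a2, and it was shared.

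The deviations of Col4a1 and Col4a2 from their group means ran together over the 8 arrays, with a Pearson correlation of 0.98 that rests on 5 degrees of freedom. Both were low on cordycepin array 3, serum array 3 and no-serum array 1, and high on cordycepin array 2, serum array 1 and no-serum array 2. The low arrays lay in both rows of the slide. The genes lie head to head. In GRCm38.p6, RefSeq has their transcripts start on opposite strands with an overlap of 22 bases at chr8:11312805-11312826, which reads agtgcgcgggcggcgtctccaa on the plus strand and is shown because both genes begin in it. Promoter windows of 300 bases were given for 35 of the 44 collagen genes. The letters GGGCGG, searched on both strands, were in the windows of Col4a1 and Col4a2, in those of 22 of the 35 collagen genes and in 35.7% of all 32851 promoters. CCAAT was in both as well, in 13 of the 35, and in 37.4% of all. The windows of this gene pair overlap, so their matches are not separate.

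Other collagens deviated with Col4a1 in the same arrays. Of the 30 other genes, 5 had a correlation over 0.8, namely Col4a2, Col6a3 (0.98), Col8a1 (0.96), Col27a1 (0.95) and Col11a2 (0.91), and Col18a1 (-0.89) and Col11a1 (-0.88) were under -0.8. Among all other probes 6.71% were over 0.8 and 5.61% under -0.8. Col4a1 was chosen as the reference after its values were seen, the points share their arrays and their scaling, and no cause was tested. Chains that join in the same collagen type were compared in 9 pairs. Col1a1 and Col1a2 deviated together (0.93), as did Col6a1 and Col6a2 (0.81), whereas Col5a1 and Col5a2 (-0.86) and Col11a1 and Col11a2 (-0.81) deviated in opposite ways. Between these lay Col6a2 and Col6a3 (0.61), Col4a5 and Col4a6 (0.47), Col6a1 and Col6a3 (0.46), and Col9a1 and Col9a2 (-0.39). Over all 465 pairs of collagen genes the median was 0.05, and 6.67% were over 0.8. Of these pairs, 97.6% lay at or above the value of Col5a1 and Col5a2, and 96.8% at or above that of Col11a1 and Col11a2.

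**Figure D3:**
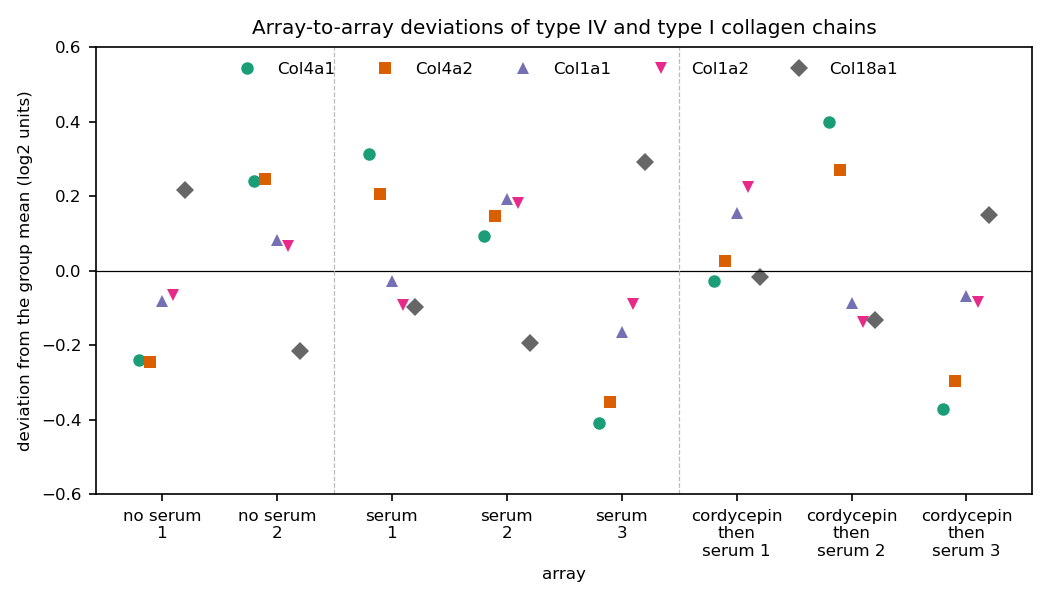
Deviation of the log2 signal from the group mean on each of the 8 arrays, in log2 units, for Col4a1, Col4a2, Col1a1, Col1a2 and Col18a1; dashed lines part the groups. Col4a1 and Col4a2 lie side by side on each array, between -0.41 and 0.40, while Col18a1 mostly lies on the other side of 0, and the type I chains keep together with smaller deviations.

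Type VI collagen links cells to the matrix through filaments of chains from Col6a1, Col6a2 and Col6a3. Col6a1 read 7.44, 7.64 and 7.54 with cordycepin, 7.50, 7.46 and 7.47 with serum, and 7.44 and 7.57 without serum. Its change of 0.06 ± 0.10 with cordycepin had an interval from -0.17 to 0.30, and its change with serum was -0.03 ± 0.11. Col6a2 read 4.80, 5.35 and 5.04 with cordycepin, 5.04, 5.09 and 4.81 with serum, and 4.91 and 4.99 without serum. Col6a3 read 5.67, 5.80 and 5.51, then 5.81, 5.74 and 5.50, then 5.52 and 5.63 in the same order of groups. All groups overlapped, with cordycepin changes of 0.08 ± 0.16 for Col6a2 and -0.02 ± 0.13 for Col6a3. The later chains Col6a4, Col6a5 and Col6a6 were not tested. Among the 9 beaded filament and related collagens on the array, 4 were tested, the fourth being Col7a1 of the anchoring fibrils of skin at -0.11 ± 0.20.

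The FACIT collagens gave 7 tested genes of 9, with changes from -0.29 to 0.29 and a median of 0.02 under cordycepin. Col12a1, which decorates type I fibrils, read 0.77, 0.76 and 0.78 with cordycepin, 0.78, 0.49 and 0.96 with serum, and 1.15 and 0.69 without serum. Its cordycepin arrays lay inside the range of the serum arrays, and the change was 0.02 ± 0.16. Col22a1, a collagen of tissue junctions, had the highest change, 0.29 ± 0.14 (adjusted p = 0.209), and Col20a1 the lowest, -0.29 ± 0.11 (adjusted p = 0.110). Col20a1 was, beside Col2a1, the gene at an unadjusted p under 0.05. Of the transmembrane collagens, Col17a1 and Col25a1 were tested of 4, at 0.20 ± 0.20 and 0.20 ± 0.34, and Col25a1 was above background on all arrays only in the group without serum.

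Col18a1, whose protein releases endostatin, was the tested multiplexin, as Col15a1 was above background on no array. Its brighter probe read -1.18, -1.30 and -1.02 with cordycepin, -1.45, -1.55 and -1.06 with serum, and -1.04 and -1.47 without serum. The groups overlapped, and its change was 0.19 ± 0.17 with cordycepin and -0.10 ± 0.19 with serum. Of the 13 genes not tested, 11 were above background on no array. The others were Col6a5, with 1 serum array, and Col26a1, with a cordycepin array at -2.15 while the other cordycepin arrays read -5.40 and -6.22, and an array without serum.

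**Figure D4:**
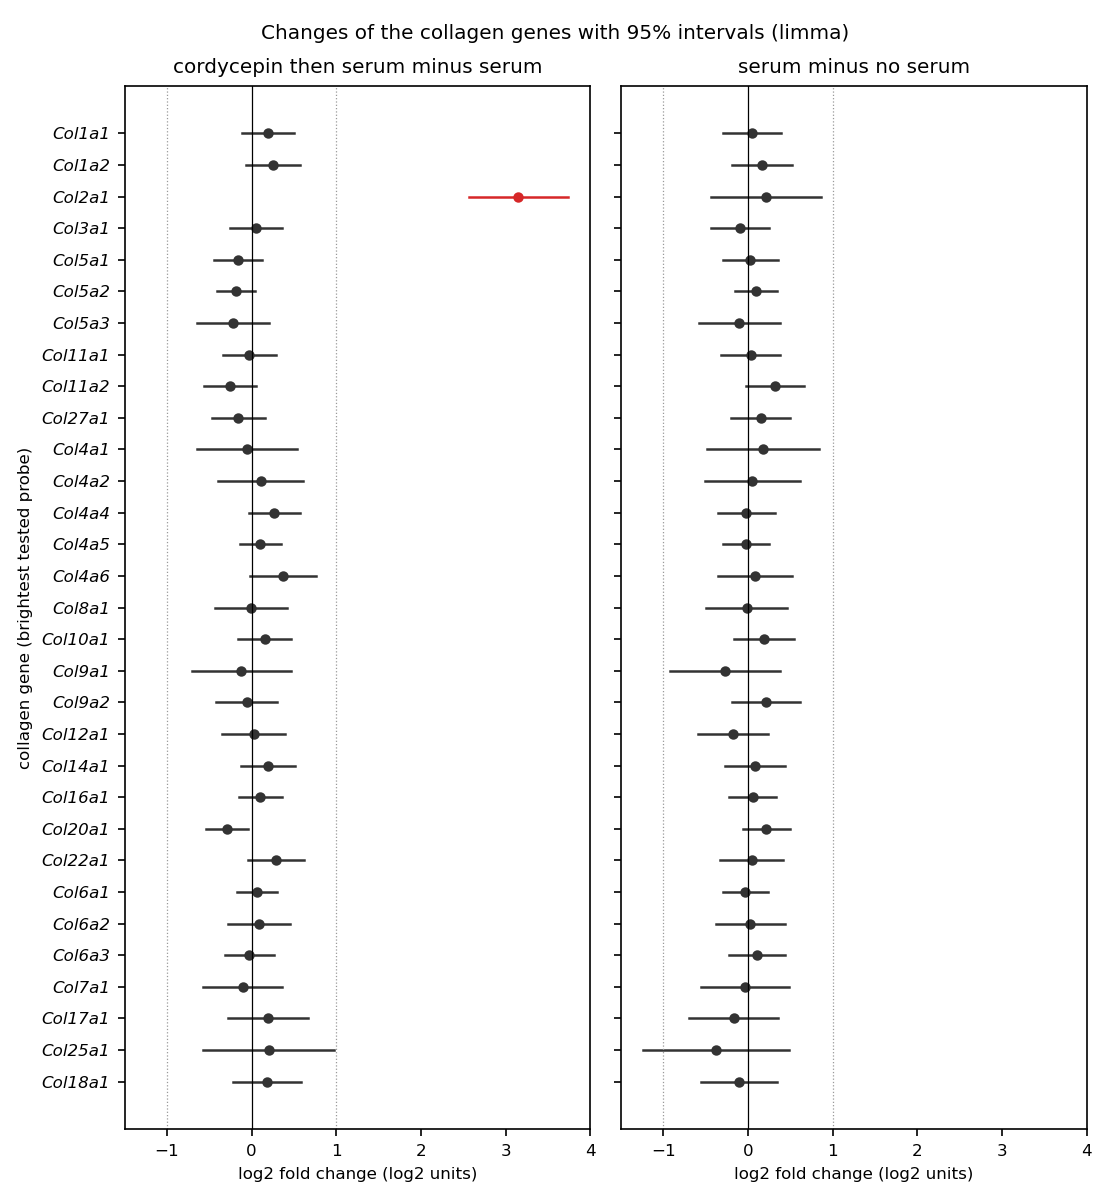
Log2 fold change of each collagen gene (point) with its 95% interval from limma (line), for cordycepin then serum minus serum on the left and for serum minus no serum on the right. Dotted lines mark a change of 1 in size; Col2a1, in red, is the gene called in the left panel, and the intervals of the other genes there lie inside the dotted lines.

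More than 1 tested probe was available for 5 collagen genes, which shows whether different places of a transcript changed alike. The change at the probe nearest the 3′ end minus that at the probe nearest the 5′ end was fitted over all 3184 genes with such a pair. It passed an adjusted p under 0.05 for 267 genes (8.39%) under cordycepin and for 2 (0.0628%) under serum, and for 0 of the 5 collagen genes in either. At an unadjusted p under 0.05, 1 collagen gene, Col20a1, differed under cordycepin and 0 under serum.

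For Col20a1 the probe at chr2:180752070-180752129 changed by -0.29 and the probe 1568 bases upstream by 0.09. The difference of -0.38 ± 0.10 had an interval from -0.61 to -0.15 and an adjusted p of 0.0619. The downstream probe read 0.07, 0.09 and 0.21 with cordycepin against 0.47, 0.32 and 0.45 with serum, without overlap. The upstream probe read 0.02, 0.19 and 0.16 against 0.02, -0.10 and 0.18, with overlap.

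For Col16a1 the probes span 20003 bases, from the helix probe printed above to the last probe with AATAAA. Under cordycepin they changed by 0.18 ± 0.26, 0.10 ± 0.11 and 0.41 ± 0.16 in order from 5′ to 3′. The difference between the outer probes was 0.22 ± 0.30, with an interval from -0.48 to 0.93 that leaves room for a sizeable disagreement. The Col18a1 probes, 864 bases apart, changed by 0.19 and 0.25 and differed by 0.07 ± 0.10 (interval -0.18 to 0.31). The Col4a6 probes, 1442 bases apart, changed by 0.41 and 0.37 and differed by -0.03 ± 0.12 (interval -0.31 to 0.24).

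Col4a4 had the widest span, 67684 bases. Its brighter, upstream probe at chr1:82515563-82515622 changed by 0.27 ± 0.13 under cordycepin and by -0.02 ± 0.15 under serum. Its dim downstream probe at chr1:82447879-82447938 read -4.28, -4.64 and -4.86 with cordycepin, -5.01, -5.26 and -4.91 with serum, and -5.32 and -5.98 without serum. That probe was above background on 3, 2 and 1 arrays of these groups. It passed for cordycepin plus serum against no serum, at 1.05 ± 0.24 (adjusted p = 0.0207), where the brighter probe gave 0.25 ± 0.15 (adjusted p = 0.312). The difference between the probes in that comparison was 0.80 ± 0.34 (adjusted p = 0.303). The call at the dim probe was lost without cordycepin array 1 (0.90, adjusted p = 0.0602), without cordycepin array 2 (1.08, adjusted p = 0.0513) and without no-serum array 2 (0.72, adjusted p = 0.147). It was also lost with normexp (0.51), quantile normalisation (0.90), spike-in centring (0.66), no filter on dim probes (adjusted p = 0.0688) and the array row as a block (0.996, below the minimum fold). On averaging both probes, the log2 change of Col4a4 was 0.37 ± 0.11 with cordycepin against serum (adjusted p = 0.0446), under the minimum fold.

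Other probes of tested genes were at background on all arrays. Col14a1, a FACIT collagen, was above background on all arrays at chr15:55347733-55347792 and on none at the probe further 3′, chr15:55352264-55352323. At background on every array were also 3 further probes of Col25a1, 1 of Col9a1 and 1 of Col4a4, genes of which the tested Col25a1 and Col9a1 probes were themselves above it on only 4 and 3 arrays.

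**Figure D5:**
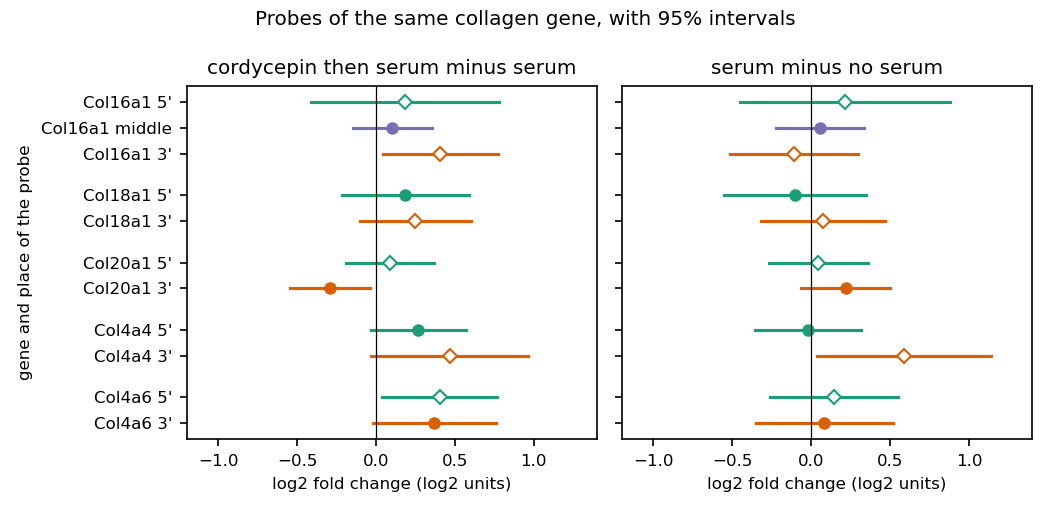
Log2 fold change with 95% interval at each tested probe of the 5 collagen genes with more than 1, ordered 5′ to 3′ within a gene, for cordycepin then serum minus serum on the left and serum minus no serum on the right. Green marks the probe nearest the 5′ end, orange the one nearest the 3′ end, purple the one between, and filled circles the brightest probe of a gene; under cordycepin the Col20a1 probes are the ones farthest apart in terms of their error.

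The enzymes and partners that make, bind and sense collagen were described by the same measure, 1 probe a gene. Of the 17 tested genes that hydroxylate or fold collagen chains, none passed an adjusted p under 0.05 in any comparison, with cordycepin changes from 0.07 to 0.37. Of all probes, 19.4% passed with cordycepin against serum, 2.27% with serum alone and 15.1% with cordycepin plus serum against no serum. The cordycepin median of these 17 genes, 0.22, was above the 0.10 of all probes. The member P4hb, a subunit of prolyl hydroxylase, changed by 0.31 ± 0.10 (adjusted p = 0.0622 in limma). None passed of the 10 tested genes that trim or crosslink procollagen or of the 7 proteoglycans that bind fibrils, with cordycepin medians of 0.11 and 0.13.

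Of the 8 collagen receptors tested, 2 rose with cordycepin at an adjusted p under 0.05, where 19.4% of all probes passed, and 0 reached the minimum fold. Itga10, an integrin chain that binds type II collagen, rose by 0.88 ± 0.23 (adjusted p = 0.0313), and Lair1, an inhibitory collagen receptor of leukocytes, by 0.85 ± 0.23 (adjusted p = 0.0327). Haematopoietic markers stood beside this, with 3 tested and all 3 above background on all arrays, those without cordycepin included. Cd68, a lysosomal protein of macrophages, rose by 3.04 ± 0.21 (adjusted p = 5.17e-05) and Itgam by 0.63 ± 0.15 (adjusted p = 0.0219), with Cd3e at 0.13 ± 0.19. The summed signal of that list was 4.75 to 5.08 with cordycepin, 3.91 to 4.10 with serum and 3.77 to 4.20 without serum. Ptprc, which marks all leukocytes, was above background on 3 of the 8 arrays at most and was not tested, and Adgre1 on 1. The part of other cells in the change of Lair1 was not tested.

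Among matrix genes outside the collagens, Thbs1, the matrix protein thrombospondin, fell by 2.05 ± 0.16 on the log2 scale with cordycepin (adjusted p = 8.42e-05) and rose by 1.45 ± 0.18 with serum (adjusted p = 0.00698). These comparisons share the serum arrays. Of 12 genes of the TGF-beta signal, a main inducer of collagen transcription, Smad7, its inhibitor, fell by 1.59 ± 0.10 (adjusted p = 3.95e-05) and Smad3, its mediator, by 0.50 ± 0.13 (adjusted p = 0.0288). These 2 of 12 are a share like the 19.4% of all probes that passed.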

How the data were processed

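Each of the 8 deposited files lists linear spot intensity from 1 array. The authors extracted it with Feature Extraction 10.7.3.1, whose processed signal has background subtracted, and the headers place probes on mm9. Each array held 62976 spots, 3671 of them controls, and 55681 probes. The log2 processed signal was centred on the 75th percentile of non-control spots of each array, outlier spots were left out, and spots of a probe were averaged. The 30859 probes well above background on every array of a group were fitted with limma 3.58.1 in R 4.3.3, 1 mean per group. Tests were two-sided, with Benjamini-Hochberg adjustment across all probes. The calculation was tested on simulated data. The brightest tested probe stands for a gene; 2 probes of collagen names without an NM accession were left out. Named were collagen genes with a probe past the adjusted threshold, 12 fixed genes of fibroblasts, and genes with several tested probes; of other lists, up to 4 passing members, and others as context. Counts over the list of other matrix genes are not reported here. The members and lists were chosen with earlier results of these data known. Arrays shared 1 slide and 1 scan, and only their row could be tested as a block. Replicate numbers did not pair the arrays (same-numbered deviations correlated between -0.17 and 0.23). The number of arrays limits the precision. Sequences come from the files' probe column and from RefSeq (GRCm38.p6). Alternatives were other background corrections, scalings, filters, blocks and call rules, and leaving out each array.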

Additional observations from a re-analysis of the deposited data

How the results depend on the processing

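Col2a1 kept its direction under every alternative that held its probe, but the number of collagen genes called higher, 1 with cordycepin against serum and 1 against no serum, was 0 in both with normexp and 0 in both when only probes above background on all arrays were tested, since its probe is then left out. It stayed at 1 without each cordycepin or serum array in turn. Those runs kept the same 30859 probes under test, and Col2a1 was well above background on cordycepin arrays only. Each run thus again set detected signals against background, so the unchanged count is no separate test of the call. In settings that kept both no-serum arrays, no collagen gene was called lower, and for serum the counts were 0. The replicate numbers did not pair the arrays, and the replicate block changed no collagen call; with it the collagen medians were 0.081 in the serum comparison and 0.11 in that of cordycepin plus serum against no serum, and 4 genes in place of 2 had disagreeing probes under serum. The collagen medians of 0.06, 0.04 and 0.08 for the cordycepin effect, the serum effect and the remaining comparison were -0.028, 0.015 and -0.014 after quantile normalisation, and 0.0098, -0.29 and -0.31 on centring to spike-in probes, where the median of all probes was 0.04, -0.35 and -0.31. Leaving out 1 array moved them between 0.013 and 0.11, between -0.0015 and 0.12, and between 0.019 and 0.18. Probes called numbered 3242, 533 and 2922 in these comparisons, and 1321, 230 and 1401 with normexp, 2005, 209 and 1440 with spike-in centring, 1809 and 1686 for the cordycepin comparisons with only probes above background on all arrays, and 5975 and 4663 for them without a minimum fold. For serum they were 221 without a filter, 346 with only the compared groups in the fit, 1003 at an unadjusted p of 0.05, and 265 to 514 when each array was left out, with 289 without no-serum array 1 and 265 without no-serum array 2. Without no-serum array 2, 0 genes had disagreeing probes under serum; over all left-out arrays the range was 0 to 3. Rises made up 72.7%, 49.2% and 68.4% of the calls, 59.7%, 56.7% and 58.1% after quantile normalisation, 78.7%, 25.8% and 57.6% with spike-in centring, and 69.6%, 74.3% and 75.9% with normexp. Of 2197 changes of single collagen genes, probes and probe differences over 19 alternatives, 10 lost a call, all at Col2a1 or the dim Col4a4 probe, and 75 changed sign by at least their standard error while uncalled. Causes of these shifts were not tested. Dim probes limit what can be said: 13 genes were not tested, and Col2a1, Col9a1, Col25a1 and the dim Col4a4 probe were near background in at least 1 group.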
